A study of Mus musculus with 12 samples.

Results

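CP775146, an agonist of the nuclear receptor PPAR-alpha, was added to primary hepatocytes of AEG-1-WT mice, and 3 RNA libraries of treated cells were compared with 3 of untreated cells. These 6 libraries were taken by their labels from the 12 of the series. The other 6 come from hepatocytes of AEG-1-L24K/L25H littermates, 3 treated and 3 untreated. Those mice carry an altered AEG-1 protein (gene Mtdh) and were made by CRISPR/Cas9 in a C57BL/6/J background. AEG-1 is a protein that binds retinoid X receptors. All mice were on regular chow, and the agonist was given for 24 h at a labelled 2.5 µM. The labels name no vehicle for the untreated cultures and give neither age nor sex. Whether replicates stand for different animals or cultures is not stated, so the p-values measure the spread between these libraries, which may be technical. In bulk RNA, fewer cells of a type and less RNA per cell cannot be told apart.

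PPAR-alpha is bound by fatty acids and by fibrate-like drugs, and it acts on DNA as a pair with a retinoid X receptor. The pair recognises a direct repeat of a 6-base half-site spaced by a single base, called DR1. In liver the receptor is best known for the fasting response, in which fatty acids are taken up, stored in droplets, oxidised in mitochondria and peroxisomes and turned into ketone bodies. In rodents its agonists are also known to enlarge the peroxisome population.

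The 3 untreated libraries held 26956032 to 27991074 counts and the 3 treated ones 29350213 to 32545428, so that 3 counts in a library stand for 0.0948 to 0.108 CPM (counts per library size, after TMM scaling). A gene was tested when it passed a filter on low counts, and 14763 of the 46983 genes in the files did so. The 12 hepatocyte markers were all tested and summed to between 116551 and 123408 CPM in every library. Of them 2 were higher after treatment and 5 lower, 1 of these at least 2-fold. The sum is mostly albumin and says little of the other members. Alb held 9.84 to 10.26% of counts in these libraries, and the list 12.1% untreated and 11.6% treated on average. Of the markers of other cells, the macrophage list summed to 219 to 258 CPM untreated and 188 to 197 CPM treated, with 0 of 11 tested members higher, 2 lower and none at 0. The endothelial list (102 to 114 CPM, then 90.6 to 92.3 CPM) had 2 of 16 tested members lower. The stellate and fibroblast list (201 to 235 CPM, then 169 to 205 CPM) had 1 of 10 lower. The cholangiocyte list went the other way, from 172 to 183 CPM to 217 to 233 CPM, with 5 of 8 tested members higher, 1 lower and Anxa13 at 0. Some of these falls were counted differently without 1 library: macrophage 4 without untreated replicate 3, endothelial 1 without untreated replicate 1, stellate and fibroblast 2 without untreated replicate 3 or treated replicate 2, and cholangiocyte 2 without untreated replicate 2. Blood-cell markers summed to at most 4.5 CPM in any library, with 9 of 20 at 0, and mesothelial markers to at most 6.57 CPM, with Upk1b, Wt1 and Gpm6a at 0. Over all genes tested 20.9% were called higher and 20.6% lower, and the counts of markers are to be read beside these shares. The falls counted in the macrophage, endothelial and stellate lists did not exceed that share. The part of these other cells in the results below was not tested.

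The response was wide and, for most genes, small. By edgeR's quasi-likelihood test with a Benjamini-Hochberg adjusted p under 0.05, called here a rise or a fall (a value in parentheses after levels is the log2 fold change, with its SE after ±), 6129 of the 14763 genes tested differed, which is 41.5%. They split into 3083 rises (20.9%) and 3046 falls (20.6%). The counts of list members given above and below are to be read beside these shares. The median log2 fold change was 0.40 among genes that rose and −0.35 among those that fell. A rise of at least 2-fold was seen in 552 genes (3.74%) and a fall of that size in 320 (2.17%). The large changes were mostly rises, with 178 genes up and 42 down at least 4-fold, 70 up and 12 down at least 8-fold, and 19 up and 0 down at least 32-fold. The even split depends on the scaling: when libraries were scaled by their total counts alone, 2078 genes rose and 4695 fell, so that 30.7% of calls were rises in place of 50.3%. That scaling moved the median log2 fold change of all genes from −0.007 to −0.102. In 7479 genes (50.7%) the 3 treated libraries lay wholly above or wholly below the 3 untreated ones. So they did in every gene named below as having risen or fallen in AEG-1-WT. The largest changes were named only where the groups lay apart, so this is no separate support for them.

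**Figure D1:**
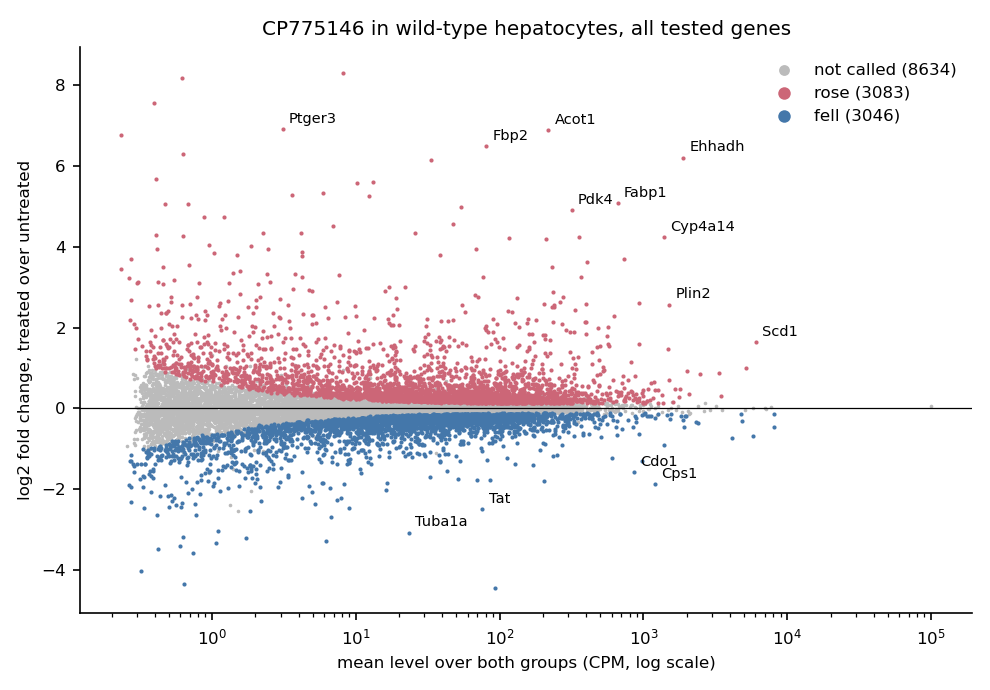
Log2 fold change on CP775146 (vertical axis) against the mean level in CPM (horizontal log axis) for the 14763 genes tested in AEG-1-WT hepatocytes, with genes that rose, fell or were not called in separate colours. The genes past 8-fold lie mostly above 0 (70 up, 12 down), and the plot labels fat-oxidation genes such as Acot1 and Ehhadh at the top and Tuba1a at the bottom.

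The genes known as PPAR-alpha targets moved together. Of 53 such genes listed, 51 were tested, 50 rose and 1 fell, and 47 rose at least 2-fold, set against 20.9% rises and 3.74% rises of that size over all genes tested. The list's median log2 fold change was 2.39, against −0.007 for all genes. In each of the 50 the lowest treated library was at least 1.28 times the highest untreated one. The 53 genes together held 0.451, 0.447 and 0.473% of all counts in the untreated libraries and 2.66, 2.64 and 2.76% in the treated ones. The means were 0.457% ± 0.0142 (SD, n = 3) and 2.69% ± 0.0649 (SD, n = 3), and the groups did not overlap. The exact two-sided permutation test gave p = 0.1, the smallest value that 3 against 3 allows. With 50 of 51 members risen the shares had to lie apart, so this test adds nothing to the counts. The list was also chosen with earlier results of these data known.

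The receptor itself and several of its coregulators changed. Ppara (ENSMUSG00000022383, chromosome 15, 85734983 to 85802819, plus strand, GRCm38) stood at 83.3, 85.3 and 83.9 CPM untreated and at 116, 131 and 118 CPM treated. Its log2 fold change was 0.53 ± 0.05 (SE), with an adjusted p of 3.18e-08. Its partner Rxra, the main retinoid X receptor of liver, was at 229, 233 and 223 CPM untreated and 200, 194 and 208 CPM treated, a fall of 0.19 log2 (log2 fold change −0.19 ± 0.05, adjusted p = 0.00264). The groups did not overlap for either gene. Rxrb overlapped between groups (0.05, adjusted p = 0.523). Rxrg was at 4.48, 3.93 and 5.47 CPM untreated and 6.23, 6.1 and 5.72 CPM treated (0.38, adjusted p = 0.0197), and the call was lost without untreated replicate 1 (0.0683), untreated replicate 2 (0.11) or treated replicate 1 (0.0629), with DESeq2 (0.0513) and with total-count scaling (0.28, adjusted p = 0.0761). Of the sister receptors, Ppard rose from 34.3, 35.4 and 31.1 CPM to 41.6, 47.2 and 42.8 CPM (0.38 ± 0.06), and Pparg, the receptor of fat cells, was not called (−0.12, adjusted p = 0.158).

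Among the 29 tested nuclear receptors and partners 7 rose and 9 fell, so the list leaned neither way (median −0.04). The shares over all genes tested were 20.9% rises and 20.6% falls. Nr0b2, Nr2f1 and Vdr were too low to test. Nr1i3, the xenobiotic receptor CAR, stood at 2.64, 2.2 and 2.75 CPM untreated and 8.53, 8.15 and 8.42 CPM treated (1.72 ± 0.12). Because 74.9% of its exon length is shared with Tomm40l, part of that signal cannot be assigned. Nr1i2, the xenobiotic receptor PXR, rose from 71.8, 71.1 and 77.3 CPM to 111, 109 and 112 CPM (0.59), and Esrrg from 0.67, 0.722 and 0.413 CPM to 1.83, 1.96 and 1.67 CPM (1.60 ± 0.25). Esr1, the oestrogen receptor, fell by 0.80 log2, and the glucocorticoid receptor Nr3c1 fell by 0.26 log2, from 170, 167 and 159 CPM to 129, 147 and 137 CPM. Hnf4a, a central factor of hepatocyte identity, was 613, 608 and 598 CPM untreated and 572, 540 and 560 CPM treated (−0.12, adjusted p = 0.0346), a call that leaving out single libraries could remove (adjusted p up to 0.128).

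The 19 tested coregulators (Prdm16 was untested) gave 5 rises and 9 falls. There were 3 rises without untreated replicate 2 or without untreated replicate 3, and 3 rises and 11 falls with total-count scaling. Creb3l3, a membrane-bound liver factor that works with PPAR-alpha on fasting genes, led the rises at 36.7, 35.5 and 40.8 CPM untreated and 448, 396 and 437 CPM treated (3.50 ± 0.06, adjusted p = 1.07e-20). Ppargc1a, the fasting-induced coactivator PGC-1alpha, fell from 11.3, 10.5 and 13.2 CPM to 5.4, 5.64 and 4.94 CPM (−1.13 ± 0.11). The groups did not overlap in either. The lipins, which are both phosphatidate phosphatases and coactivators, divided: Lpin2 rose by 0.65 log2 and Lpin1 fell by 0.57 log2. The acetyltransferases Ep300 and Crebbp also fell, by 0.45 and 0.42 log2. Mtdh itself, which encodes AEG-1, was at 168, 151 and 160 CPM untreated and 170, 178 and 173 CPM treated (0.12, adjusted p = 0.0499), and that call moved across the threshold as single libraries were left out (adjusted p 0.0366 to 0.227) and was lost with total-count scaling (0.03, adjusted p = 0.686).

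**Figure D2:**
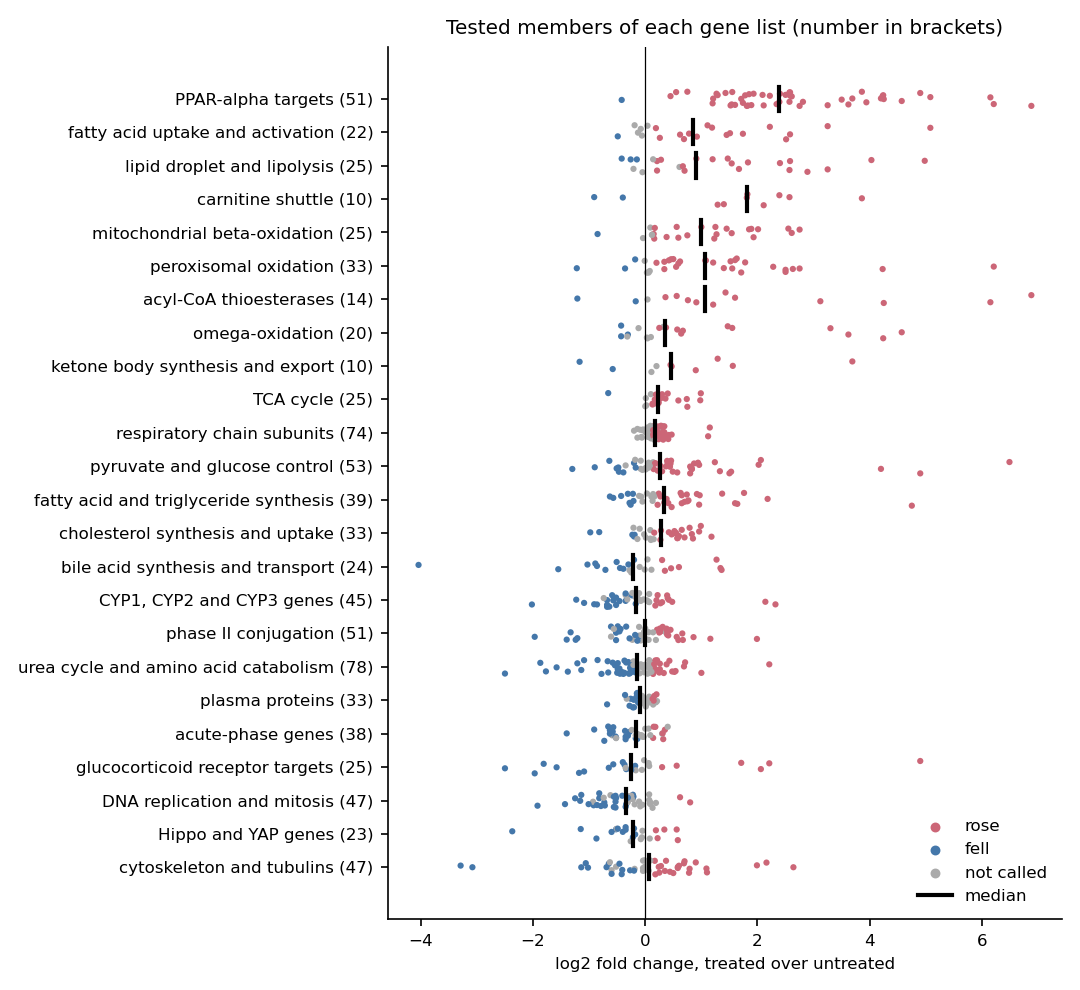
Log2 fold change on CP775146 (horizontal axis) of the tested members of 24 gene lists (rows), 1 point a gene, with each list's median marked. The fat-oxidation lists sit to the right of 0, with a median of 2.39 for the PPAR-alpha targets, and DNA replication and mitosis sits to the left at −0.35.

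Sequence near the start sites was read for a small set of these genes, to show what a DR1 repeat looks like there. RefSeq promoter windows (GRCm38.p6, 250 bases before to 50 after each start) were searched on both strands for AGGTCANAGGTCA, with up to 2 mismatches outside N. The tolerance was chosen after a search for exact repeats gave few matches. Of 27025 genes with a window, 4.4% held such a match, 0.644% one with at most 1 mismatch and 0.0481% an exact one. Only 67.8% of the genes tested and 76.5% of the tested PPAR-alpha targets had a window, which is too few for a comparison of groups of genes, so none is given. Each sequence below is read in the direction of the repeat, 5′ to 3′, with the 13-base match in capitals.
Fabp1: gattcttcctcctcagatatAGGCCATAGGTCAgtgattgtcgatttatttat
Cd36: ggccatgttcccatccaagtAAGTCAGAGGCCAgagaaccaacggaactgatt
Creb3l3: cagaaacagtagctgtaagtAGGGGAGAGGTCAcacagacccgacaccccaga
Plin2: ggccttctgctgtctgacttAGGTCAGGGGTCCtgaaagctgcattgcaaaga
Aldh9a1: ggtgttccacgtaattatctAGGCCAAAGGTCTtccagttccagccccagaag
Acot12: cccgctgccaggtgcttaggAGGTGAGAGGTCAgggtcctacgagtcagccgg
Positions are counted from the RefSeq start of each window, which need not be the gene start given in the text. The Fabp1 match lies at chr6:71199812-71199824 (minus strand), at −67 to −55 from that start. The Cd36 match, at chr5:17835947-17835959 (plus strand), lies at −63 to −51 from a RefSeq start inside the gene span given below. Those of Creb3l3 (chr10:81092788-81092800, minus strand), Plin2 (chr4:86670272-86670284, plus strand), Aldh9a1 (chr1:167349847-167349859, plus strand) and Acot12 (chr13:91741411-91741423, minus strand) lie farther upstream. Fabp1 and Acot12 have 1 mismatch and the others 2. These are examples picked, after their values were seen, from the genes that rose and hold a match. Genes that fell hold such matches too, also with 1 mismatch, and are not printed. The matches are descriptions of letters, not of binding.

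Fatty acid uptake and activation rose at several steps. Of 22 tested members 16 rose, 10 of them at least 2-fold, and 1 fell (median 0.85), or 2 without treated replicate 2 and 3 with total-count scaling. Fabp3, Fabp7, Acsl6 and Acss1 were untested. The intracellular carrier Fabp1 (ENSMUSG00000054422, chromosome 6, 71199827 to 71205023, plus strand) stood at 39.1, 31.8 and 42.4 CPM untreated and 1244, 1162 and 1443 CPM treated. Its log2 fold change was 5.08 ± 0.14 (adjusted p = 4.76e-07), and the lowest treated library was far above the highest untreated one. The membrane transporter Cd36 (ENSMUSG00000002944, chromosome 5, 17781690 to 17888801, minus strand) went from 68.1, 61.7 and 81.4 CPM to 655, 697 and 662 CPM (3.25 ± 0.09, adjusted p = 7.64e-11). Acsl1, which ties fatty acids to coenzyme A before any further use, went from 114, 118 and 114 CPM to 660, 689 and 712 CPM (2.58). Slc27a2, a transport and activation protein, rose by 2.51 log2, and the adipocyte carrier Fabp4 by 2.22 log2, from 11.6, 10.4 and 11.3 CPM to 49.3, 50.6 and 55.4 CPM. Slc27a5, which prefers bile acids, was not called (0.04), and the mitochondrial acyl-CoA synthetase Acss3 fell by 0.49 log2.

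Proteins of the lipid droplet and of lipolysis followed, with 18 rises, 12 of them at least 2-fold, and 3 falls among 25 tested members (Plin1 was untested). Plin2, the main droplet coat protein of hepatocytes, was at 430, 422 and 451 CPM untreated and 2654, 2446 and 2643 CPM treated (2.57 ± 0.05, adjusted p = 3.35e-20). G0s2, an inhibitor of the lipase Pnpla2, went from 3.28, 2.49 and 4.13 CPM to 97.6, 96 and 120 CPM (4.98 ± 0.16). Hilpda, another inhibitor of that lipase, went from 14.3, 14.1 and 15.3 CPM to 134, 134 and 149 CPM (3.25). Both inhibitors and the lipase rose, since Pnpla2, chosen after its values were seen, had a log2 fold change of 1.20. The monoacylglycerol lipase Mgll rose by 2.58 log2, and Cidea, a droplet-fusion protein hardly present before (0.0705, 0.397 and 0.172 CPM), reached 2.91, 3.16 and 4.51 CPM (4.03 ± 0.33). The coat proteins did not all go one way: Plin4 fell from 128, 130 and 117 CPM to 95.5, 92.7 and 93.1 CPM (−0.42 ± 0.05, adjusted p = 8.30e-07), the single PPAR-alpha target of the list to do so, and Plin3 fell by 0.26 log2.

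The carnitine shuttle carries long fatty acids into mitochondria, and 8 of its 10 tested members rose, all at least 2-fold (median 1.81). Slc16a9 was untested, and Tmlhe was not matched in the files. Cpt1a, the liver form of the rate-setting transferase of the outer membrane, was at 97.2, 106 and 105 CPM untreated and 255, 259 and 241 CPM treated (1.29 ± 0.05). Cpt1b, the muscle form, went from 0.423, 0.65 and 0.55 CPM to 7.55, 8.12 and 7.96 CPM (3.86 ± 0.17). Of its exon length 81.4% is shared with Chkb. The inner-membrane partners rose too, Slc25a20 from 48, 45.4 and 51.1 CPM to 204, 196 and 223 CPM (2.11) and Cpt2 by 1.81 log2. So did the cell-surface carnitine transporter Slc22a5 (2.57), the acetyl transferase Crat (2.39) and Aldh9a1, an enzyme of carnitine synthesis (1.82). Bbox1, the last enzyme of that synthesis, fell by 0.40 log2.

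In mitochondrial beta-oxidation 20 of 25 tested members rose, 13 at least 2-fold, and 1 fell (median 1.0, Acss1 untested), or 2 with total-count scaling. Hadha and Hadhb, the subunits of the trifunctional protein for long chains, rose most. Hadha (ENSMUSG00000025745) stood at 260, 259 and 267 CPM untreated and 1564, 1585 and 1648 CPM treated (2.61 ± 0.05, adjusted p = 1.01e-20), and Hadhb had a log2 fold change of 2.75. Decr1, needed for unsaturated chains, went from 72.8, 62.1 and 74.8 CPM to 396, 408 and 428 CPM (2.55). The long-chain dehydrogenase Acadl went from 140, 131 and 149 CPM to 497, 519 and 543 CPM (1.89). The fall was in Acadsb, which acts on short branched chains from isoleucine, at 109, 105 and 109 CPM untreated and 56.4, 62.5 and 61.1 CPM treated (−0.85 ± 0.05, adjusted p = 1.72e-11). Pccb, Hibadh and Mut, which handle propionyl groups and valine, were not called.

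Peroxisomal oxidation shortens very long chains, and 26 of its 33 members rose, 17 at least 2-fold, and 3 fell (median 1.07). Ehhadh (ENSMUSG00000022853, chromosome 16, 21761287 to 21787844, minus strand), the bifunctional enzyme of the pathway, stood at 53.5, 49.1 and 48.9 CPM untreated and 3674, 3709 and 3824 CPM treated. Its log2 fold change was 6.21 ± 0.06 (adjusted p = 2.43e-25). Per kilobase of exon it went from 16.7 to 1238, compared with 68.3 to 2320 for Fabp1 and 53.4 to 1010 for Cyp4a14, so these ended within about the same order of level. The thiolase Acaa1b went from 11.6, 11.5 and 12 CPM to 218, 209 and 233 CPM (4.23). Ech1 (2.75), Eci2 (2.63) and Hsdl2 (2.50) rose as well. Pipox, which oxidises pipecolic acid and sarcosine in the same organelle, fell from 156, 154 and 165 CPM to 70, 67.9 and 66 CPM (−1.22 ± 0.05, adjusted p = 9.65e-15), and the glycolate oxidase Hao1 fell by 0.36 log2. The branched-chain oxidase Acox2 was not called (−0.01).

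The peroxins, which build the organelle, changed less: 11 of 16 tested members rose, 2 of them at least 2-fold, and none fell (median 0.21, Pex5l untested). With total-count scaling 7 rose, and 7 did so without untreated replicate 1. The 2 large rises were Pex11a, which drives peroxisome division, from 102, 107 and 103 CPM to 427, 433 and 470 CPM (2.09), and Pex19, a carrier of membrane proteins, from 81.3, 87.7 and 87.9 CPM to 178, 172 and 180 CPM (1.05).

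Acyl-CoA thioesterases free fatty acids from coenzyme A. Of 14 tested members 11 rose, 7 at least 2-fold, and 2 fell (median 1.06, Them5 untested). No member fell without untreated replicate 1, and 1 did without treated replicate 1. The 6 Acot genes in a 123 kb stretch of chromosome 12 (83987861 to 84111349) all rose, but by very different amounts, from 0.91 log2 for Acot6 to 6.88 log2 for Acot1. Acot1, the cytosolic form, stood at 3.91, 2.92 and 4.09 CPM untreated and 409, 433 and 454 CPM treated (6.88 ± 0.08, adjusted p = 1.19e-23). Its mitochondrial copy Acot2 went from 36.2, 32.8 and 38.4 CPM to 662, 664 and 713 CPM (4.25), and the peroxisomal Acot3 from 0.916, 1.01 and 0.86 CPM to 60.5, 66.6 and 71 CPM (6.15 ± 0.11). These copies are near-identical in places, so reads may be split among them. Acot12, an acetyl-CoA thioesterase on another chromosome, rose from 279, 272 and 292 CPM to 818, 876 and 870 CPM (1.60).

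The omega-oxidation list, cytochromes that attack the far end of a fatty acid with their partner enzymes, gave 11 rises and 3 falls among 20 tested members. Cyp4a14 went from 142, 144 and 131 CPM to 2505, 2669 and 2710 CPM (4.24), Cyp4a10 from 60.4, 67.7 and 53.7 CPM to 740, 726 and 762 CPM (3.62) and Cyp4a31 from 3.88, 4.15 and 3.51 CPM to 91.9, 90 and 92.3 CPM (4.57). All 6 tested of the 11 Cyp4a genes in a 483 kb stretch of chromosome 4 rose, by 3.11 to 4.57 log2. Of these, Cyp4a30b had 5 counts untreated and 49 treated, and Cyp4a30-ps, named as a pseudogene, 18 and 391. Both passed the filter only through the treated libraries, so their rises say nothing beyond that. The 3 falls were in Cyp4f genes: Cyp4f13 from 54.5, 57.7 and 54.7 CPM to 40.7, 40.9 and 42.6 CPM (−0.43), Cyp4f15 (−0.43) and Cyp4f14 (−0.31). The subfamily was not of 1 sign, since Cyp4f17 rose (0.64) and Cyp4f16 was not called (0.04), both chosen after their values were seen. Cyp4a12a, Cyp4a12b and Cyp4f18 were untested. Near-identical Cyp4a copies may share reads.

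Of 10 tested genes of ketone body synthesis and export 6 rose and 2 fell (Hmgcll1 untested). Acat1, a thiolase of ketone synthesis, rose from 69.4, 67.9 and 70.5 CPM to 198, 204 and 213 CPM (1.56). The ketone exporter Slc16a1 rose from 126, 126 and 121 CPM to 295, 302 and 317 CPM (1.29). Oxct1, which tissues other than liver use to burn ketones, fell from 4.83, 5.52 and 4.99 CPM to 2.15, 2.61 and 2.03 CPM (−1.17), and the monocarboxylate carrier Slc16a7 fell by 0.58 log2.

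**Figure D3:**
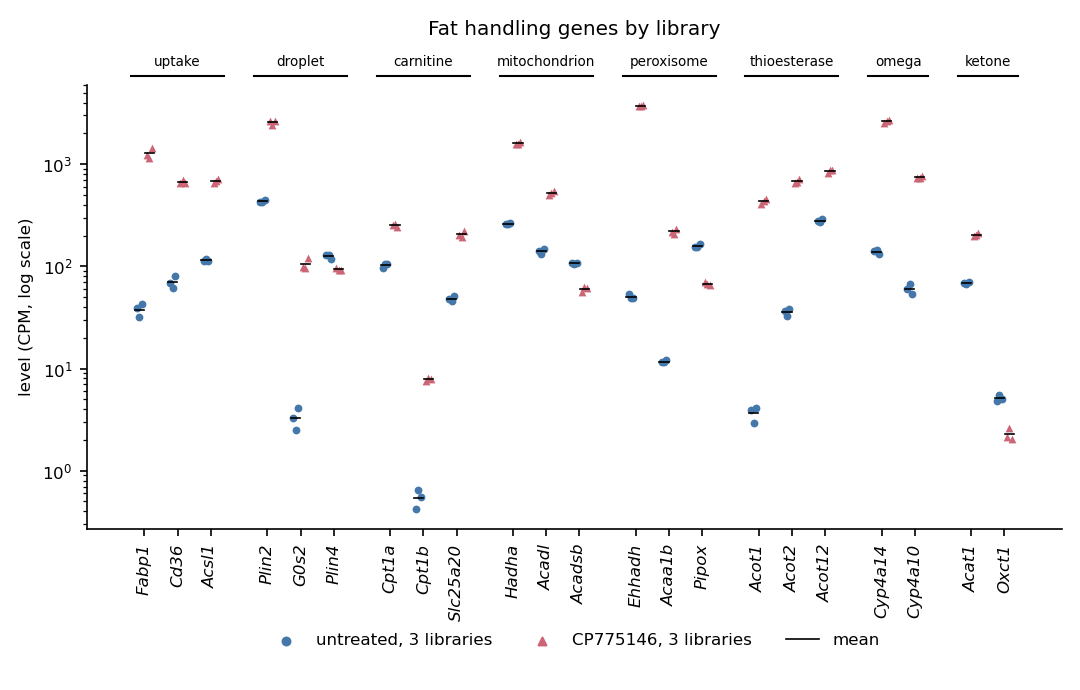
CPM (vertical log axes) of genes of fat handling in each of the 3 untreated and 3 treated AEG-1-WT libraries, 1 point a library, ordered by step from uptake to ketones. The treated points of Fabp1 (1162 to 1443 CPM) stand clear of the untreated ones (31.8 to 42.4 CPM), while Plin4, Acadsb, Pipox and Oxct1 lie lower after treatment.

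The tricarboxylic acid cycle and respiratory chain shifted far less than fat oxidation. The cycle list, with its linked enzymes, had 20 rises and 1 fall among 25 tested members, none past 2-fold (median 0.23, Me3 untested). The NADP-linked isocitrate dehydrogenases parted: cytosolic Idh1 rose from 216, 202 and 217 CPM to 407, 422 and 435 CPM (0.99), and mitochondrial Idh2 fell from 200, 204 and 220 CPM to 128, 128 and 138 CPM (−0.66). Among 74 respiratory chain subunits encoded in the nucleus 42 rose and 0 fell (median 0.18), and Cycs, cytochrome c, rose from 5.53, 5.56 and 5.43 CPM to 10.1, 13.9 and 12.7 CPM (1.15). With total-count scaling 21 rose and 2 fell, so the count turns on the scaling. The 37 mitochondrial genes are listed at 0 in all files. Mitochondrial ribosomal proteins (28 of 74 rose, 0 fell, median 0.12) and cytosolic ones (20 of 75 rose, 1 fell, median 0.12, Rpl23a untested) were also scaling-bound, at 12 and 5 rises and 3 and 4 falls with total counts and medians of 0.02. The cytosolic rises were 13 without untreated replicate 1 and 10 without treated replicate 3, and the cytosolic falls were 4 without untreated replicate 3. Mrpl17, a mitochondrial one, was the largest, from 61.5, 64.3 and 65.2 CPM to 102, 98.1 and 106 CPM (0.68). The uncoupling protein Ucp2, one of the mitochondrial carriers (13 of 20 rose, 4 fell), went from 9.2, 8.16 and 7.87 CPM to 135, 122 and 131 CPM (3.94), while the carrier Slc25a48 fell from 13.3, 12.2 and 13 CPM to 4.99, 5.25 and 4.9 CPM (−1.35).

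In pyruvate and glucose metabolism 31 of 53 tested members rose, 9 at least 2-fold, and 9 fell (median 0.27; Aqp3 and Aqp7 were untested). Pdk4, the kinase that shuts pyruvate dehydrogenase, stood at 22.1, 19.7 and 19.6 CPM untreated and 592, 605 and 640 CPM treated (4.90 ± 0.06, adjusted p = 1.19e-23), while its relative Pdk2 was not called (0.01). Fbp2, the muscle form of fructose bisphosphatase, went from 1.69, 1.95 and 1.68 CPM to 155, 155 and 169 CPM (6.49 ± 0.08), compared with a log2 fold change of 1.53 for the liver form Fbp1. The glycerol kinase Gk rose from 56.4, 49.5 and 56.2 CPM to 212, 228 and 219 CPM (2.02). Entry of fructose and glucose went the other way. The hexose transporter Slc2a2 fell from 365, 348 and 349 CPM to 183, 201 and 185 CPM (−0.90). Ketohexokinase Khk (−0.47) and the glucokinase regulator Gckr (−0.48) fell too, and Ppp1r3c, a glycogen-targeting subunit, fell from 24.3, 25.4 and 28 CPM to 7.14, 6.59 and 7.64 CPM (−1.86). The groups did not overlap in any of these genes but Pdk2.

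Txnip, an arrestin-like protein that restrains glucose uptake, went from 22.5, 20 and 22.5 CPM to 378, 400 and 414 CPM (4.20). On the opposite strand of chromosome 3 lies Gm15441 (96555765 to 96566801, minus strand), which spans Txnip (96557957 to 96561883, plus strand) and was chosen after its values were seen. It had 4 counts in the 3 untreated libraries together and 1468 in the treated ones, or 0.0705, 0 and 0.0688 CPM and then 15.8, 16.6 and 16.2 CPM, a fitted log2 fold change of 8.31 ± 0.23. No strand setting is recorded for the counting, so reads of the pair cannot be told apart where their exons overlap, which is 19.4% of the exon length of Txnip.

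Lipid synthesis also leaned upwards, with 23 rises, 6 of at least 2-fold, and 8 falls among 39 tested members (Elovl3, Agpat4 and Mogat2 untested). Scd1, the desaturase that makes oleate, was already abundant at 3080, 3016 and 2757 CPM and reached 8899, 9298 and 9339 CPM (1.64). Acacb, whose product malonyl-CoA restrains fatty acid entry into mitochondria, went from 68.2, 68.7 and 57.6 CPM to 292, 304 and 286 CPM (2.18). Mlycd, which destroys malonyl-CoA, also rose, from 42.3, 41.5 and 44.7 CPM to 128, 125 and 136 CPM (1.60). Mogat1, a monoacylglycerol acyltransferase, had 5 counts untreated and 152 treated (fitted log2 fold change 4.75 ± 0.44). Fatty acid synthase, Fasn, was not called (0.13), with overlapping groups, and Fads6 (−0.63), Dgat1 (−0.31) and the carbohydrate-sensing factor Mlxipl (−0.28) fell.

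Cholesterol synthesis rose in a part of its steps: 19 of 33 tested members rose, 1 at least 2-fold, and 5 fell (Npc1l1 and Abcg1 untested). The sterol reductase Hsd17b7 led, from 91.8, 92.4 and 91.3 CPM to 204, 215 and 204 CPM (1.18), followed by Mvd (0.99) and Hmgcs1, from 363, 342 and 379 CPM to 683, 730 and 697 CPM (0.96). The master regulator Srebf2 was not called (−0.02). Of the sterol exporters, Abca1 rose from 103, 104 and 97 CPM to 173, 209 and 165 CPM (0.85), while the canalicular pair Abcg5 and Abcg8 fell, Abcg5 from 11.4, 12.9 and 14.2 CPM to 6.7, 5.93 and 6.86 CPM (−0.98) and Abcg8 by 0.82 log2.

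Bile acid synthesis and transport gave 7 rises and 11 falls among 24 tested members (median −0.23; Cyp46a1, Hsd3b7, Slc51a, Slc51b and Nr0b2 untested). Of the uptake carriers, Slco1a4 fell from 65.3, 58.5 and 70 CPM to 21.9, 23.1 and 21.4 CPM (−1.55), Slc10a2 from 36.3, 35.7 and 34.6 CPM to 19.3, 18.7 and 19.4 CPM (−0.89) and Slc10a1 by 0.71 log2, while Slco2b1 rose from 16.8, 18.3 and 18.2 CPM to 45.8, 44.5 and 44.6 CPM (1.34). Slco1a1 had a log2 fold change of 0.35 (adjusted p = 0.0107), a call lost without untreated replicate 1 (0.0628) or treated replicate 2 (0.0795) and with total-count scaling (0.0542). The reductase Akr1d1 fell by 1.03 log2. The canalicular phospholipid exporter Abcb4 rose from 113, 107 and 126 CPM to 295, 299 and 295 CPM (1.36), and Klb, the coreceptor for FGF15 and FGF21, rose by 1.27 log2. In lipoprotein assembly 11 of 23 tested members rose and 4 fell. Mttp, which loads lipid onto apolipoprotein B, went from 246, 239 and 247 CPM to 624, 636 and 660 CPM (1.39), and Apob itself fell from 5527, 5142 and 5415 CPM to 4398, 4714 and 3799 CPM (−0.32, adjusted p = 8.20e-04). Apoa4 rose from 2359, 2477 and 2329 CPM to 4383, 3915 and 4769 CPM (0.87), with 34.8% of its exon length shared with Gm10680, while Apoa1, Apoe and Apoc3 were not called.

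Enzymes of the urea cycle and amino acid breakdown fell more often than they rose, with 37 falls, 8 of at least 2-fold, and 21 rises among 78 tested members (median −0.14, Arg2 untested). Falls were 20.6% over all genes tested. Cps1 (ENSMUSG00000025991, chromosome 1, 67123026 to 67231259, plus strand), the entry enzyme of the urea cycle, fell from 1927, 1738 and 2012 CPM to 517, 541 and 501 CPM (−1.87 ± 0.06, adjusted p = 3.46e-17). The next enzyme, Otc, rose from 36.2, 33.5 and 35.2 CPM to 55.1, 56.2 and 58.1 CPM (0.69). Of the enzymes that act in tyrosine breakdown, Tat fell from 127, 122 and 137 CPM to 27.4, 19.4 and 21.4 CPM (−2.50 ± 0.12, adjusted p = 6.37e-07), and Hpd from 128, 132 and 139 CPM to 42.3, 35.7 and 39 CPM (−1.77). Tryptophan breakdown differed in sign, since Tdo2 rose from 53.3, 44.5 and 68.3 CPM to 230, 276 and 264 CPM (2.21 ± 0.19, adjusted p = 8.03e-04). In the taurine branch of cysteine use, Cdo1 fell from 1318, 1252 and 1304 CPM to 421, 411 and 463 CPM (−1.58), and the next enzyme, Csad, rose from 39.2, 40.2 and 45.6 CPM to 79.5, 81.7 and 89.8 CPM (1.0). Glud1, Gpt2 and Ftcd were not called. The groups did not overlap in any called gene of this paragraph.

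Drug-metabolising cytochromes of families 1 to 3 gave 19 falls and 11 rises among 45 tested members (median −0.17; Cyp1b1 untested and Cyp2c44 unmatched). With total-count scaling 24 fell and 7 rose. Cyp2b10, the classical gene of CAR activation, fell from 1789, 1779 and 1881 CPM to 977, 946 and 981 CPM (−0.91), while the receptor gene Nr1i3 rose as described above. Cyp2a5 fell from 795, 804 and 942 CPM to 335, 388 and 359 CPM (−1.23). Cyp1a1, the classical target of the aryl hydrocarbon receptor, fell from 24.6, 25.5 and 28 CPM to 5.97, 6.81 and 6.5 CPM (−2.02), and the receptor gene Ahr from 140, 139 and 137 CPM to 72.1, 75.3 and 70.9 CPM (−0.93). The rises were led by the arachidonate epoxygenases Cyp2j9 (2.32) and Cyp2j5, from 89.2, 80 and 91.8 CPM to 374, 388 and 391 CPM (2.14). Ephx2, which opens such epoxides, rose from 195, 183 and 206 CPM to 726, 769 and 826 CPM (1.99).

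Conjugation and other oxidation genes gave 17 rises and 16 falls among 51 tested members (Mgst2 and Nat8 untested), with large values on both sides. Fmo2, a flavin monooxygenase, fell from 14, 11.7 and 13.2 CPM to 3.19, 4.01 and 3.38 CPM (−1.88). The sulfotransferases Sult1e1, which inactivates oestrogens, and Sult1d1 fell, Sult1e1 from 10.4, 9.6 and 11.9 CPM to 2.65, 2.45 and 3.06 CPM (−1.97) and Sult1d1 from 255, 221 and 264 CPM to 84.5, 98.5 and 97.5 CPM (−1.40). Among 26 genes of the NRF2 antioxidant response 17 rose and 5 fell, or 2 fell without untreated replicate 1, untreated replicate 2 or treated replicate 3. The carbonyl reductases led, with Cbr1 from 119, 125 and 127 CPM to 308, 317 and 342 CPM (1.38) and Cbr3 at 2.07 log2, while the cystine carrier Slc7a11 (−0.36) and ferritin heavy chain Fth1 (−0.35) fell. In retinoid metabolism (10 rises and 7 falls among 23 tested) Retsat, retinol saturase, rose from 105, 108 and 104 CPM to 563, 548 and 591 CPM (2.43), and Aldh1a1, which makes retinoic acid, from 745, 750 and 872 CPM to 2116, 2273 and 2186 CPM (1.47).

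Genes known to respond to glucocorticoids fell more often than they rose, 13 against 6 of 25 tested, with 6 falls and 4 rises of at least 2-fold. All genes tested gave 20.9% rises and 20.6% falls, to be set beside this list and the clock genes that follow. Sgk1 fell from 301, 332 and 321 CPM to 85, 90.1 and 96.6 CPM (−1.81), and Igfbp1, a binding protein of insulin-like growth factors, from 336, 343 and 300 CPM to 148, 140 and 145 CPM (−1.18). Tat, given above, and Klf15 (−0.96) also fell. The largest change in the list was nevertheless a rise, of 4.9 log2. Clock genes gave 5 rises (3 with total-count scaling) and 11 falls of 23: Per2 fell from 26.3, 27.9 and 25.7 CPM to 15.5, 12.9 and 13.3 CPM (−0.93) and Usp2 by 1.49 log2, while Bhlhe41 rose by 1.90 log2. All libraries were taken at a single time, so no rhythm can be read from these values.

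**Figure D4:**
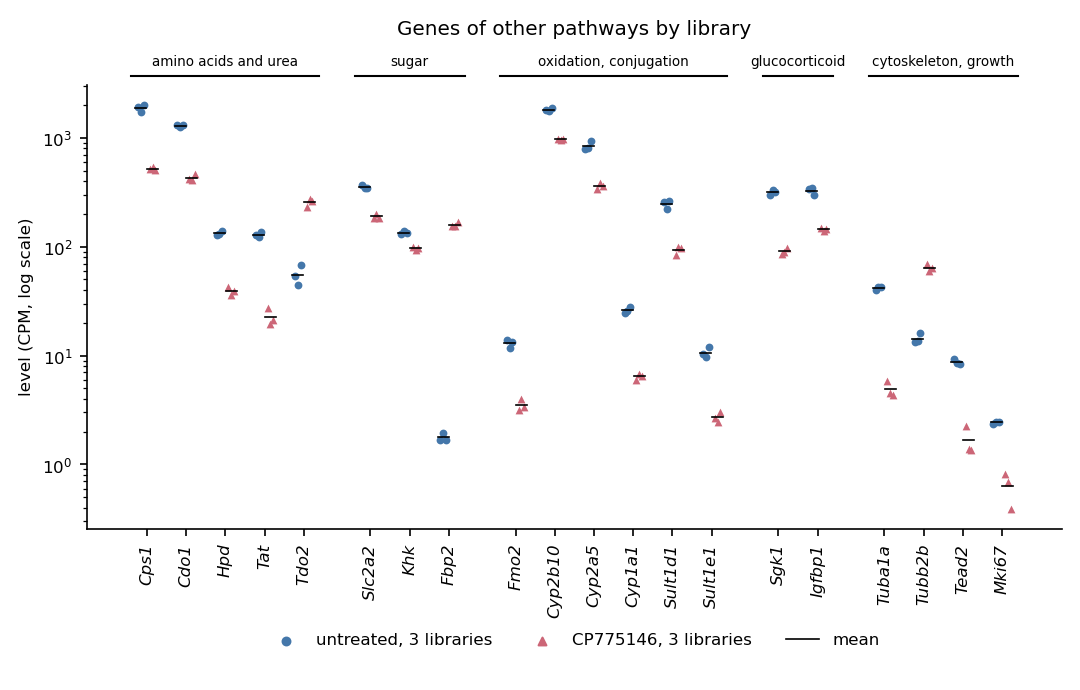
CPM (vertical log axes) of genes outside fat oxidation in each of the 3 untreated and 3 treated AEG-1-WT libraries, 1 point a library. Most panels fall, as Cps1 (1738 to 2012 CPM, then 501 to 541 CPM) and Fmo2 (11.7 to 14 CPM, then 3.19 to 4.01 CPM) do, and Tdo2, Fbp2 and Tubb2b rise.

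Secreted signals moved in both directions. Of 26 liver hormones and hormone-like factors 10 rose and 11 fell. Fgf21, the fasting hormone, went from 1.41, 1.12 and 1.72 CPM to 7.24, 6.94 and 7.39 CPM (2.34 ± 0.15). Inhbe, an activin subunit, went from 6.49, 5.41 and 6.05 CPM to 34.1, 31.6 and 32.9 CPM (2.46), and Angptl4, an inhibitor of lipoprotein lipase, from 91.1, 92.3 and 108 CPM to 320, 309 and 326 CPM (1.71). Igfbp3 fell from 2.22, 3.14 and 2.65 CPM to 1.04, 0.815 and 0.817 CPM (−1.57), and the iron hormone Hamp from 3.03, 3.18 and 3.23 CPM to 1.71, 0.815 and 1.03 CPM (−1.40). The selenium carrier Selenop fell from 9626, 9082 and 9492 CPM to 6696, 6986 and 6887 CPM (−0.46).

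Among 33 plasma proteins 4 rose and 13 fell, none by 2-fold (median −0.09). With total-count scaling 0 rose and 17 fell, and 2 rose without untreated replicate 1, untreated replicate 2 or treated replicate 3. Albumin, Alb, at 97613, 99843 and 96860 CPM untreated and 101456, 101571 and 106547 CPM treated, was not called (0.07, adjusted p = 0.228), although the groups did not overlap. With total-count scaling its value was −0.02. Ahsg fell from 7191, 7270 and 6909 CPM to 4469, 4290 and 4603 CPM (−0.68). Of the other most abundant genes, Fn1 fell from 5235, 5238 and 4957 CPM to 3189, 3165 and 2895 CPM (−0.74). Tgm2, transglutaminase, rose from 3472, 3699 and 3244 CPM to 6878, 6813 and 7047 CPM (0.99, with 21.8% of its exon length shared with Gm20412). Bsg, the partner of the lactate carriers, rose from 1760, 1854 and 1660 CPM to 3147, 3035 and 3396 CPM (0.86). Ttr, Gc, C3 and Rbp4 were not called. Complement and coagulation genes gave 10 rises and 17 falls of 46 tested (Cfd untested and Klkb1 unmatched), beside 20.9% rises and 20.6% falls over all genes. Tfpi2, a tissue factor pathway inhibitor, had the largest change (1.12), and Serpind1 (−0.87) and F11 (−0.72) fell. Acute-phase genes gave 6 rises and 17 falls of 38. With total-count scaling the rises were 5 and 3.

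Inflammatory genes were low or moved both ways. Of 40 genes of the NF-kB response only 25 were tested, with 6 rises and 8 falls. Over all genes tested 20.9% rose and 20.6% fell, so these counts do not set the list apart. The 15 too low to test include Il1b, Il6, Tnf and Nos2. The chemokine Ccl2 fell from 16.1, 16.6 and 16.2 CPM to 7.81, 7.01 and 6.36 CPM (−1.20). Csf1 fell from 29, 27.2 and 30.1 CPM to 15.6, 14 and 11.3 CPM (−1.07), and the adhesion molecule Icam1 from 27.1, 24.2 and 27.4 CPM to 16.6, 14.5 and 12.8 CPM (−0.84). Tnfaip2 rose from 12.5, 12.3 and 11.1 CPM to 50.4, 49.5 and 47.8 CPM (2.04). Nfkbia and Tnfaip3, feedback inhibitors of the pathway, were not called. The macrophage markers Cd68 (236, 238 and 200 CPM, then 179, 174 and 178 CPM, −0.34) and Cd163 (−1.16) fell alongside, and their part in these values was not tested.

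Cell division genes were low, and more of them fell than rose. Of 47 tested members of DNA replication and mitosis 25 fell, 6 at least 2-fold, and 2 rose (median −0.35). Another 7, among them Plk1 and Ccnb1, were too low to test. Mki67, a marker of cycling cells, stood at 2.36, 2.45 and 2.48 CPM untreated and 0.822, 0.685 and 0.391 CPM treated (−1.92), and Uhrf1, which helps to copy DNA methylation, fell from 2.71, 2.78 and 3.03 CPM to 1.2, 1.14 and 0.782 CPM (−1.43). Ccnd1, cyclin D1, fell from 12.4, 11.5 and 14 CPM to 6.38, 6.72 and 6.08 CPM (−0.98), and among 25 tested genes of the G1 phase 11 fell and 4 rose. The p53 target Cdkn1a was not called (−0.02). Tead2, a partner of the Hippo coactivators, fell from 9.23, 8.59 and 8.29 CPM to 2.24, 1.4 and 1.35 CPM (−2.37), within a Hippo list of 5 rises (3 with total-count scaling) and 12 falls among 23 tested.

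The cytoskeleton list held large changes of both signs, with 22 rises and 13 falls among 47 tested (Anxa1 untested) and 5 of at least 2-fold each way. The tubulins changed in opposite directions: Tuba1a (ENSMUSG00000072235) fell from 39.9, 42.9 and 42.5 CPM to 5.85, 4.5 and 4.37 CPM (−3.08), while Tubb2b rose from 13.4, 13.5 and 16.1 CPM to 69.9, 59.9 and 63.1 CPM (2.16). Marcksl1, an actin-binding protein, fell from 10, 12.6 and 11.2 CPM to 1.23, 1.01 and 1.21 CPM (−3.29). Lgals3, galectin 3, rose from 31.7, 35.3 and 29.4 CPM to 126, 124 and 132 CPM (1.99) and the keratin Krt23 from 2.01, 1.52 and 2.61 CPM to 13.8, 11.8 and 12.8 CPM (2.64). Among the cholangiocyte markers Sox9, a factor of bile duct and progenitor cells, rose from 5.5, 6.24 and 5.88 CPM to 14.8, 15.8 and 16 CPM (1.40). Cldn4 rose from 28.4, 29.7 and 25.7 CPM to 55.5, 56.9 and 55.6 CPM (1.01), and Krt19 from 3.38, 3.28 and 3.09 CPM to 6.38, 6.16 and 5.65 CPM (0.90). Epcam, with 17 counts untreated and 32 treated, was too low to test.

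Outside the lists, several genes that were near the floor in untreated cells became readily detected. Ptger3, a prostaglandin E receptor, had 4 counts in the 3 untreated libraries and 555 in the treated ones (0.106, 0.0361 and 0 CPM, then 5.78, 5.87 and 6.82 CPM, fitted log2 fold change 6.91 ± 0.32). Rapgef5, an exchange factor for Rap proteins, went from 0.67, 0.577 and 0.344 CPM to 24.7, 26.7 and 26.4 CPM (5.60), and Rab15, a vesicle GTPase, from 0.529, 0.505 and 0.206 CPM to 20.3, 19.6 and 19.7 CPM (5.58). Chrna2, a nicotinic receptor subunit, went from 0.916, 0.361 and 0.585 CPM to 23.8, 22.9 and 25.9 CPM (5.27), and Lamb3, a laminin chain, from 2.54, 2.42 and 2.3 CPM to 46.9, 46 and 54 CPM (4.34). Large falls were seen in genes of low level such as Fam107a (2.19, 1.98 and 1.62 CPM, then 0.19, 0.326 and 0.0355 CPM, −3.33) and the protease Mep1a (3.28, 3.39 and 2.68 CPM, then 0.379, 0.359 and 0.249 CPM, −3.22). Plcl1, a phospholipase-like protein, fell from 16, 15 and 14.4 CPM to 2.75, 3.13 and 2.38 CPM (−2.46), and the tyrosine kinase Fes from 11.9, 13.5 and 13.4 CPM to 3.07, 3.13 and 2.13 CPM (−2.21).

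Another cluster of neighbours moved together. Serpinb9 genes, whose human relative inhibits granzyme B, fill 493 kb of chromosome 13 (33003250 to 33495998), and 6 of the 7 tested rose. Serpinb9e (15 counts untreated, 636 treated) and Serpinb9f (23, then 260) passed the filter only through the treated libraries, so their rises add little to that count. Serpinb9e went from 0.141, 0.18 and 0.206 CPM to 6.35, 7.63 and 7.14 CPM (5.29 ± 0.22) and Serpinb9d from 0.775, 0.289 and 0.653 CPM to 13.7, 12.9 and 13 CPM (4.51). The other members were chosen after their values were seen: Serpinb9f (3.39), Serpinb9g (2.93), Serpinb9c (2.30) and Serpinb9 (1.47) rose, and Serpinb9b was not called (−0.15, adjusted p = 0.754). These copies are alike enough that reads may be split among them. All 7 have a RefSeq promoter window, and 4 hold the same DR1-like letters, AGGTAGAAGGTCA, with 2 mismatches to the repeat searched. No gene outside the family, of the 27025 with a window, held those 13 letters. Any given run of 13 letters is rare in windows of this length, so its absence elsewhere shows nothing particular to the family. The sequences are shown as examples of letters, picked after the values were seen. Whether the letters bear on the responses was not tested.
Serpinb9d: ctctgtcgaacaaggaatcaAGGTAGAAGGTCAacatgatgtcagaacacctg
Serpinb9e: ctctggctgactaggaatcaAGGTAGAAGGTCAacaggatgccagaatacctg
Serpinb9g: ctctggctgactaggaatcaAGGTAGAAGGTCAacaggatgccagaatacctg
The match lies at chr13:33192732-33192744 in Serpinb9d, chr13:33249390-33249402 in Serpinb9e and chr13:33484568-33484580 in Serpinb9g, each on the minus strand and between −223 and −206 from the start. The printed stretches of Serpinb9e and Serpinb9g are the same, so these members share sequence and are not independent of each other.

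The same treatment in AEG-1-L24K/L25H hepatocytes shows where the AEG-1-WT response differs. An interaction test over all 12 libraries (edgeR's quasi-likelihood test) asked whether the log2 fold change was larger or smaller in AEG-1-WT. Of 15664 genes tested 1113 differed (7.11%), 678 with a higher value (4.33%) and 435 with a lower value (2.78%) in AEG-1-WT, and 75 by at least 1 log2 (0.479%). With total-count scaling 519 were higher and 663 lower in AEG-1-WT, so the split turns on the scaling. Without treated AEG-1-L24K/L25H replicate 1 the test called 732 genes, 251 of them lower in AEG-1-WT, and the number lower was 270 and 271 without untreated AEG-1-L24K/L25H replicates 1 and 2 and 638 without treated AEG-1-WT replicate 1. The 4 groups are shown here on a scale normalised over the 12 libraries. Among the 51 tested PPAR-alpha targets 38 differed, 31 higher and 7 lower in AEG-1-WT, and the list's median log2 fold change was 2.39 in AEG-1-WT and 2.01 in AEG-1-L24K/L25H.

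Several of the differences came with a different starting level. Acot1 began at 4.07, 3.04 and 4.26 CPM in AEG-1-WT and 14.2, 14.7 and 14.6 CPM in AEG-1-L24K/L25H, and ended at 425, 452 and 475 CPM and at 498, 474 and 493 CPM. Its response was larger in AEG-1-WT by 1.82 log2 (adjusted p = 9.59e-13), although its treated level was not higher there. Cd36 began at 70.7, 64.2 and 84.8 CPM against 558, 562 and 569 CPM and ended at 680, 728 and 692 CPM against 1904, 1770 and 1932 CPM, a response of 3.26 log2 in AEG-1-WT and 1.73 log2 in AEG-1-L24K/L25H (difference 1.52, adjusted p = 8.12e-07). Its treated level in AEG-1-WT was thus nearer to the untreated level of AEG-1-L24K/L25H than to the treated one. Creb3l3 (difference 0.86), Plin2 (0.63) and Aldh1a1 (0.88) had the same pattern, with a lower start in AEG-1-WT, as in Plin2 at 452 against 789 CPM on average. Hadha differed otherwise: it began at 271, 270 and 278 CPM against 301, 303 and 297 CPM and ended higher in AEG-1-WT, at 1625, 1655 and 1724 CPM against 1295, 1316 and 1342 CPM (difference 0.48, adjusted p = 1.27e-07). Acadl (0.64) and Fbp2 (1.39) also ended higher there, on average at 542 against 456 CPM and at 167 against 124 CPM. Both had a lower start in AEG-1-WT as well, at 146 against 190 CPM and at 1.85 against 3.61 CPM.

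The targets with a smaller response in AEG-1-WT included Fabp1, Fabp2, Cyp4a10, Cyp4a14, Acaa1b and Cidec, the last chosen after its values were seen. Cyp4a10 began at 62.8, 70.5 and 55.9 CPM against 30, 31 and 30 CPM and ended at 770, 758 and 798 CPM against 664, 637 and 674 CPM (difference −0.82, adjusted p = 1.21e-07). Fabp1 ended at like levels, 1293, 1214 and 1509 CPM against 1343, 1255 and 1432 CPM, from starts of 40.6, 33.1 and 44.2 CPM against 21.4, 23.2 and 21.7 CPM (difference −0.84, adjusted p = 0.0173). That call was lost without untreated AEG-1-L24K/L25H replicate 1 (0.0525). For Ehhadh the difference was −0.02 ± 0.06 (SE, adjusted p = 0.918).

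Among genes that fell, the AEG-1-WT response was the deeper in several. Tuba1a had a difference of −1.21 log2, from 41.5, 44.7 and 44.2 CPM to 6.08, 4.7 and 4.57 CPM in AEG-1-WT and from 36.2, 33 and 35.3 CPM to 10.3, 9.05 and 9.23 CPM in AEG-1-L24K/L25H. Mki67 differed by −1.49 log2, and its level was below 3 CPM in AEG-1-WT and 11.6, 11 and 11.7 CPM before treatment in AEG-1-L24K/L25H. Sult1e1 (−1.21), Cyp2a5 (−0.83), Sult1d1 (−0.64), Cps1 (−0.62) and Pipox (−0.46) had differences of the same sign. Rxra fell in AEG-1-WT and was at 232, 227 and 236 CPM and then 242, 234 and 244 CPM in AEG-1-L24K/L25H, a difference of −0.24 (adjusted p = 0.00392). Oas3, an interferon-induced gene, was not called in AEG-1-WT, at 1.8, 1.88 and 1.65 CPM and then 2.56, 1.36 and 1.41 CPM, against 1.92, 1.92 and 2.24 CPM and then 5.46, 4.78 and 5.29 CPM in AEG-1-L24K/L25H (difference −1.33, adjusted p = 9.84e-04).

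The largest differences outside these lists were in genes of low level. Gsn, gelsolin, stood at 1.69, 1.43 and 1.54 CPM and then 1.77, 1.74 and 1.82 CPM in AEG-1-WT. In AEG-1-L24K/L25H it fell, from 3.94, 4.15 and 4.01 CPM to 1.84, 1.66 and 1.69 CPM (difference 1.42, adjusted p = 4.74e-05). Espn, an actin-bundling protein, rose further in AEG-1-WT, from 3.37, 3.65 and 3.58 CPM to 14.1, 20.5 and 17.6 CPM, against 2.4, 2.38 and 2.1 CPM to 3.71, 4.51 and 4.39 CPM (difference 1.42). Pde1b, a phosphodiesterase, had the opposite difference, reaching 1.71, 1.16 and 1.3 CPM in AEG-1-WT and 3.27, 3.13 and 2.84 CPM in AEG-1-L24K/L25H (difference −2.25, adjusted p = 5.38e-04). The interferon-induced GTPase gene Tgtp1 went from 3.7, 2.71 and 2.04 CPM to 1.41, 1.02 and 0.632 CPM in AEG-1-WT and from 2.93, 3.42 and 2.3 CPM to 3.17, 3.65 and 3.55 CPM in AEG-1-L24K/L25H (difference −1.70, adjusted p = 0.00114).

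**Figure D5:**
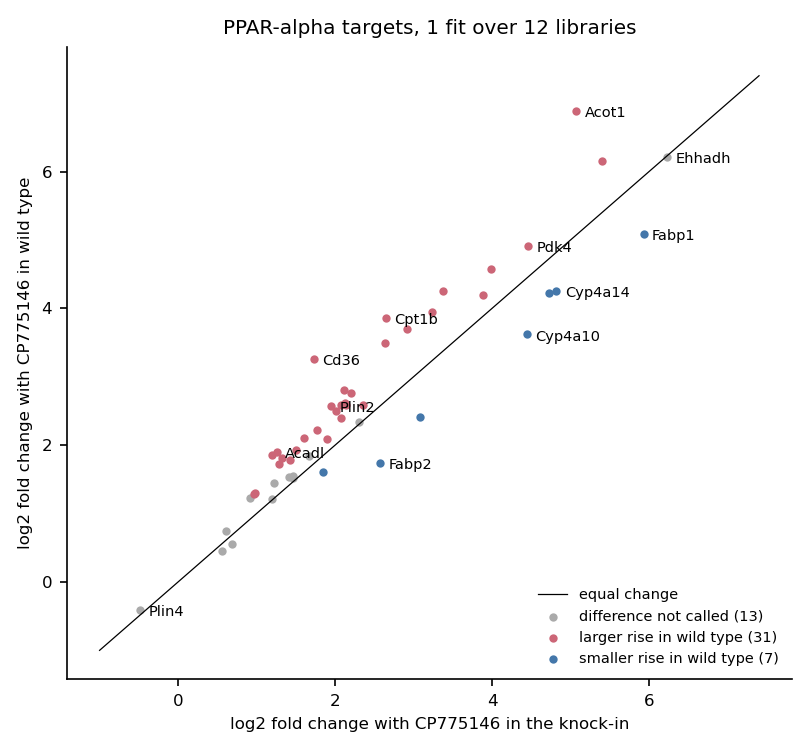
Log2 fold change on CP775146 of the 51 tested PPAR-alpha targets in AEG-1-L24K/L25H (horizontal axis) and AEG-1-WT (vertical axis) hepatocytes, 1 point a gene, coloured by the test of the difference, with the line of equal response. The 31 genes with a larger response in AEG-1-WT lie above the line, the 7 with a smaller one below it, and 13 were not called.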

How the data were processed

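Gene counts of 6 AEG-1-WT libraries, and of 6 AEG-1-L24K/L25H libraries for the genotype test, were deposited by the authors. These counts are raw whole numbers of reads over exons per gene of Ensembl 83 (GRCm38) from featureCounts 1.6.2, per the file headers. The submitters' processing notes name FastQC 0.11.2, cutadapt 1.9, Subread, featureCounts 1.4.6-p4 and edgeR 3.18.1. No strand or multi-mapping option is recorded. Symbols matched 46488 of 46983 gene IDs.

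Counts were fitted with edgeR 4.0.16 (R 4.3.3): filterByExpr (minimum count 10, minimum total 15), TMM scaling, the robust quasi-likelihood test and Benjamini-Hochberg adjustment over all genes tested, at 0.05. The response was fitted on the 6 libraries, and the genotype difference on all 12. CPM use TMM-scaled totals, and SE is the log2 fold change over the square root of F. The fit was tested on simulated data. The members and lists were chosen with earlier results of these data known.

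Genes were named by rule: the 25 largest rises and falls at a mean of at least 1 CPM with groups apart, up to 6 called members a direction and up to 3 uncalled members of each list, the 25 most abundant genes, the 10 largest genotype differences each way, and the receptors. Genes outside it are marked in the text.

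Results were recomputed with DESeq2 1.42.0 and limma voom (3.58.1), with RLE or total-count scaling, other filters, all 12 libraries in the fit, a 2-fold minimum, a replicate block and leaving out each library. No pairing by replicate number was seen in the AEG-1-WT libraries, which cannot show that there was none. Replicates of a group differed by more than sampling noise (chi-square per degree of freedom 3.87 to 6.84), so all were kept.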

Additional observations from a re-analysis of the deposited data

Results flagged for a closer look

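Each result here is a gene whose response differed between the genotypes by at least 1 log2 in the interaction test over 12 libraries, given as the AEG-1-WT minus the AEG-1-L24K/L25H log2 fold change. These are genes named in the text, so their number is no measure of how common such differences are.

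Among genes of fat handling and glucose the response was larger in AEG-1-WT for Cidea (2.25), Acot1 (1.82), Cd36 (1.52), Fbp2 (1.39) and Cpt1b (1.21). Outside them it was larger for Ptger3 (2.64), Tmem171 (1.52), Gsn (1.42), Espn (1.42), Lamb3 (1.37), H2-Q2 (1.35), Serpinb9e (1.34) and Chrna2 (1.29). The value was lower in AEG-1-WT for Pde1b (−2.25), Iqgap3 (−1.81), Tgtp1 (−1.70), Mki67 (−1.49), Tmem52 (−1.36), Oas3 (−1.33), Serpina5 (−1.29), Cubn (−1.24), Sult1e1 (−1.21), Tuba1a (−1.21), Marcksl1 (−1.15) and Tead2 (−1.05).

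The calls of 5 of these genes did not hold in every alternative fit, a check chosen after the data were seen. For Ptger3 (adjusted p = 0.0449) 9 of the fits gave no call, with adjusted p up to 0.164 without untreated AEG-1-L24K/L25H replicate 3. For Tmem52 (0.0304) 6 fits gave no call, up to 0.187 without treated AEG-1-L24K/L25H replicate 2, and for Cubn (0.0317) 6, up to 0.251 without untreated AEG-1-WT replicate 1. Serpinb9e was not called without untreated AEG-1-L24K/L25H replicate 2 (0.129) or without untreated AEG-1-WT replicate 1 (0.0895) or 2 (0.0556). Iqgap3 was not called without untreated AEG-1-WT replicate 2 (0.0799). In Cd36, Acot1, Cpt1b, Fbp2, Cidea, Lamb3 and Tmem171 the untreated level was higher in AEG-1-L24K/L25H than in AEG-1-WT on average. So it was in Gsn, Serpinb9e, Chrna2, Iqgap3, Mki67, Oas3, Cubn and Sult1e1, in Ptger3 near the floor, and barely in Tgtp1 (2.89 against 2.82 CPM). In Tuba1a, Espn, H2-Q2, Pde1b, Tmem52, Serpina5, Marcksl1 and Tead2 it was lower.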

How the results depend on the processing

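No gene called by both the reported fit and an alternative had opposite directions in them. Of the 6129 genes called, 5214 were also called by DESeq2 (5250 called there), 6056 by limma voom (6118) and 6111 with all 12 libraries in the fit (7049). Leaving out single libraries gave 5046 to 5997 calls, of which 4918 to 5485 were shared. A test against a 2-fold minimum called 402 genes, 309 rises and 93 falls. Total-count scaling called 4695 falls in place of 3046. Deviations from the group means in same-numbered AEG-1-WT libraries were correlated at −0.038, −0.067 and 0.079. No pairing by replicate number was seen there, but such values cannot show that the samples were unpaired. A fit with the replicate block called 5866 genes, 2985 rises and 2881 falls, and for the genotype difference 1010, of which 616 were higher and 394 lower in AEG-1-WT.

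The genotype difference was called in 732 to 1468 genes as single libraries were left out, fewest without treated AEG-1-L24K/L25H replicate 1 and most without untreated AEG-1-WT replicate 3. The number lower in AEG-1-WT ranged from 251 to 638, and was 663 with total-count scaling in place of 435, with 519 higher there in place of 678. That scaling also gave 7 rises among peroxins in place of 11, 21 among respiratory chain subunits in place of 42, 12 among mitochondrial ribosomal proteins in place of 28 and 5 among cytosolic ones in place of 20. Without single libraries the peroxin rises were 7 to 9 and the cytosolic ribosomal rises 10 to 27. For markers of other cells, macrophage falls were 6 with total-count scaling, 5 with all 12 libraries and 2 to 4 without single libraries, in place of 2. Endothelial falls were 6, 5 and 1 to 3 in place of 2, and stellate and fibroblast falls 2 with total-count scaling, 2 with the replicate block and 1 to 2 without single libraries, in place of 1. The causes were not tested. The share held by PPAR-alpha targets differed by 2.35 percentage points per kilobase of exon and by 2.23 in raw counts. Depth limits values near 0.1 CPM, where a library holds 3 counts or fewer.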

Other observations

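Liver transcription factors gave 10 rises, 4 of them at least 2-fold, and 16 falls among 35 tested genes (median −0.12; Hnf4g and Lef1 untested). Klf10, a Krueppel-like repressor, rose from 9.73, 8.44 and 11 CPM to 30.7, 31.7 and 30.1 CPM (1.66 ± 0.08), and Id3, an inhibitor of helix-loop-helix factors, from 7.26, 6.75 and 7.84 CPM to 14.4, 13.9 and 16.3 CPM (1.03). The forkhead factor Foxa2, which opens liver enhancers, fell from 35.8, 38.8 and 38.8 CPM to 22, 24.5 and 22.6 CPM (−0.71). Genes of pericentral hepatocytes, the cells around the central vein, were mixed at 6 rises and 8 falls among 18 tested (Lgr5, Rhbg, Sp5 and Notum untested). Cyp2e1, a marker of that zone, fell from 504, 513 and 501 CPM to 382, 399 and 414 CPM (−0.35).

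Interferon-stimulated and MHC class I genes gave 6 rises and 6 falls among 42 tested (Oas2 and Mx1 untested), beside 20.9% rises and 20.6% falls over all genes. Without treated replicate 1 the count was 7 rises and 19 falls, and the median log2 fold change went from 0.05 to −0.21. The falls were 3 without untreated replicate 1 or 2 and 2 without treated replicate 2 or 3, and with total-count scaling the median was −0.04. H2-Q10, a class I molecule secreted by the liver, rose from 623, 651 and 636 CPM to 1096, 1062 and 1154 CPM (0.79), and Ifit2 fell from 12.4, 12 and 12.1 CPM to 7.71, 6.55 and 5.62 CPM (−0.87). H2-Q2 went from 5.04, 5.12 and 4.47 CPM to 36.7, 40.2 and 40.1 CPM (3.0). Class I genes resemble each other closely, so reads may be split among them.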
